A study of Mus musculus with 2 samples.

Results

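The clustered histone genes encode the proteins that wrap DNA into nucleosomes, and they sit together in a few clusters. Members were all genes whose RefSeq symbol, reached from the accession printed beside each array probe, or an older symbol of the same entry began with Hist1h, Hist2h, Hist3h, Hist4, H1f, H2ac, H2bc, H3c or H4c. Of 76 such entries in the mouse gene table, 51 had a probe on the array, out of 20433 genes with a symbol. The newer prefix H1f also takes 4 linker histone genes outside the clusters (H1f0, H1f7, H1f8 and H1f10), and the other 47 carry a cluster name. The study compared stable derivatives of ATDC5, an established mouse line of chondrocyte type that is used as a model of cartilage formation. The line labelled as overexpressing HES1, a transcriptional repressor downstream of Notch, is called the HES1 line, and its control, labelled as overexpressing the fluorescent protein GFP, is called the GFP line. Both had been made by lentiviral transduction and grown for 3 days in monolayer on 60 mm dishes. Neither the promoter that drives the transgenes nor whether a line is a clone or a pool is given in the sources used here. Total RNA of each line was read on 1 single-colour Agilent array, so no difference below has a replicate check, a test or a p-value.

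Nucleosomes hold an octamer of the core histones H2A, H2B, H3 and H4, and the linker histone H1 binds where DNA enters and leaves. Most clustered genes are transcribed during S phase, when new DNA needs packaging. Their mRNAs have no introns and end in a stem-loop, bound by the protein SLBP, in place of a poly(A) tail. Some members are also known, in human cells, to give polyadenylated mRNA outside S phase. The labels name a cRNA labelling kit that in its standard form starts from poly(A) tails, but the primer is not given in the sources used here, so it was not tested how far these probes read the stem-loop form.

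Depth was alike on the arrays, with 56.6% of spots well above background for the HES1 line and 54.6% for the GFP line. Signals are scanner brightness, scaled so that the 75th percentile of each array is 1057.2, and only values of the same probe can be compared. The probe for Hes1 read 10.3 in the HES1 line and 10.2 in the GFP line, below the detection limit of both arrays, so it checked neither label. Of 13 chondrocyte markers 11 were seen, among them Sox9 and Col2a1, while Hapln1 and Matn3 were dim in both lines, dim meaning not well above background by the scanner's own call. Of 7 leukocyte markers with a probe, 3 were seen, and Lyz2, Tyrobp, Laptm5 and Adgre1 were dim in both lines. Csf1r read 2030 in the HES1 line and 1978 in the GFP line, Cd14 read 499 in the HES1 line and 542 in the GFP line, and the general leukocyte gene Ptprc was seen only in the HES1 line, at 47.8 against 25.2, or at least 1.25-fold higher. The seen leukocyte markers summed to a signal of 2576 in the HES1 line and 2545 in the GFP line, and their part in any result was not tested. The summed signals of the 2 seen of 5 endothelial markers were 8858 in the HES1 line and 8539 in the GFP line, nearly all of it from Kdr, while Cdh5, Emcn and Tek were dim in both lines. The seen epithelial markers summed to 126 in the HES1 line and 113 in the GFP line, and the adipocyte marker Fabp4 read 80.1 in the HES1 line and 130 in the GFP line. No skeletal muscle marker was seen. In bulk RNA, fewer cells in S phase and less histone mRNA per cell cannot be told apart.

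Most clustered histone genes read lower in the HES1 line. Above 0 were 6 of 10 measured H2B genes and some H1, H2A and H4 genes. Of the 51 members, 46 were measured, 43 of them well above background on both arrays and 3 on 1 array. The 5 not seen on either were H1f3, H1f7, H2ac6, H2ac8 and H2bu2. The difference was below 0 for 32 of the 46 measured members and above 0 for 14, against 55% and 45% of the 14273 measured genes of the array. Probes of very alike members may read each other's mRNA, so the member counts are not counts of separate readings. At least 2-fold lower were 7 members, where 4.95% of all measured genes were lower by that much, and at least 2-fold higher were 2 members, where 11.1% of all genes were higher. At 1.5-fold the counts were 21 lower and 9 higher, against 14.6% and 17.4% of all genes. After a loess correction over brightness, and after median scaling with probes detected in both lines, the 2-fold split was 5 higher and 5 lower. Each of these corrections also changed the sign of 2 members. The median log2 difference, HES1 line over GFP line, was -0.55 for the members and -0.06 for all measured genes. The scanner's own error of such a difference had a median of 0.20 over the members. That error covers the spot and not the culture, and every member probe stood on the array only once.

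**Figure D1:**
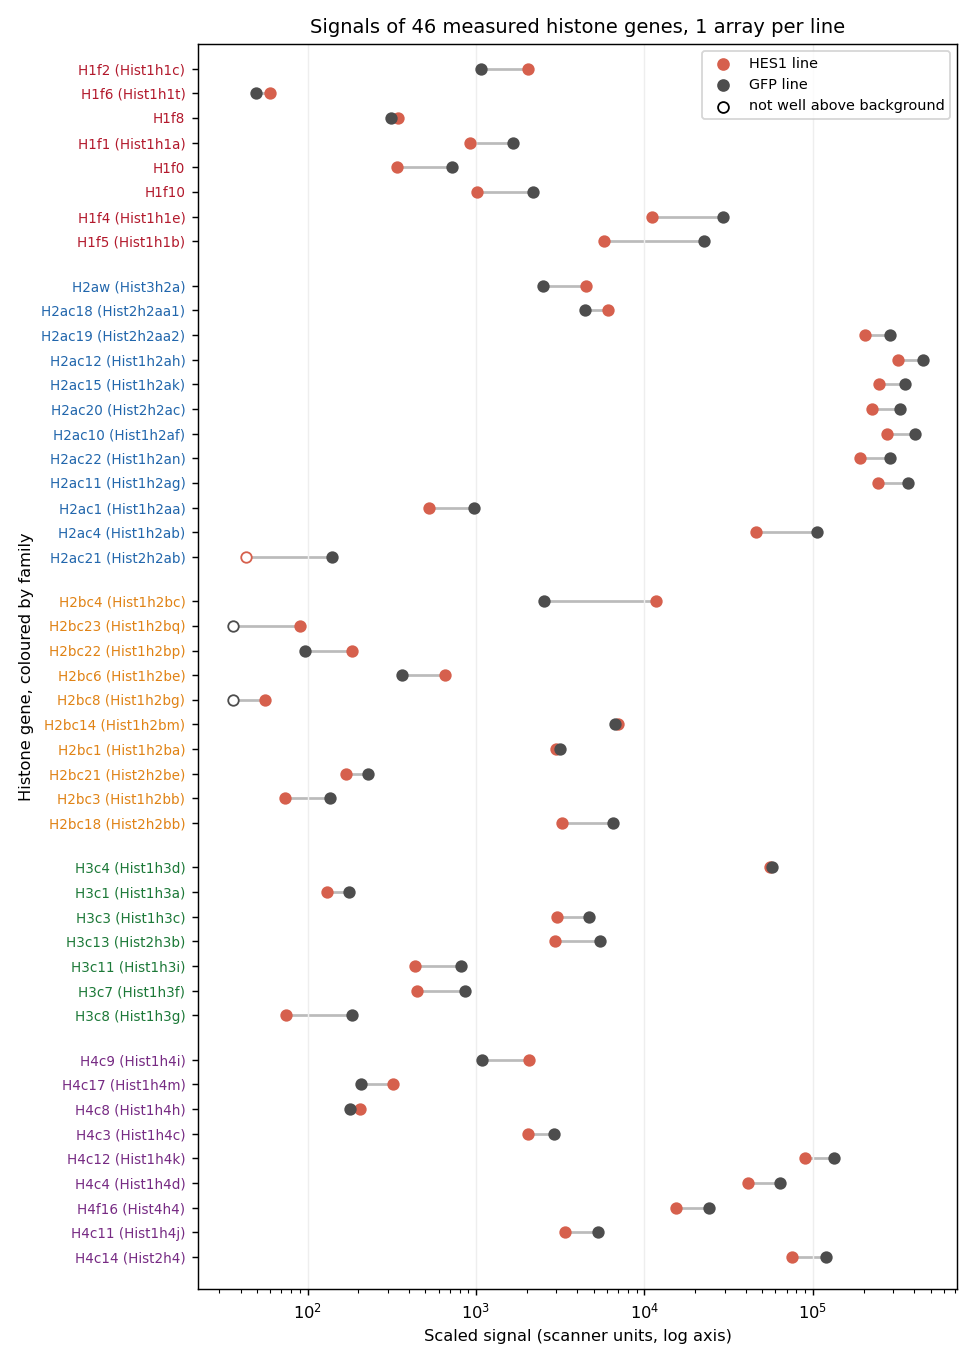
Scaled signal (scanner units, log axis) of the 46 measured histone genes in the HES1 line (red) and the GFP line (dark grey), 1 array each, grouped by family and ordered by difference. Open points were dim (not well above background); red points lie left of grey ones for 32 genes and right of them for 14.

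The linker histones held the lowest difference of all members. H1f5 (Hist1h1b), a linker histone of dividing cells, had a signal of 5789 in the HES1 line against 22464 in the GFP line, a log2 difference of -1.96 with a scanner error of 0.20. H1f4 (Hist1h1e), another replication-dependent linker histone, had 11029 in the HES1 line against 29466 in the GFP line, or -1.42 ± 0.20. H1f1 (Hist1h1a) had 918 against 1654 and stayed within 2-fold, at -0.85. All of these were lower in the HES1 line by several times the scanner error. H1f2 (Hist1h1c) went the other way, with 2036 in the HES1 line against 1065 in the GFP line, a difference of 0.94 that stayed under 2-fold. H1f6 (Hist1h1t), the testis linker histone, read 59.8 and 49.6 in the HES1 and GFP lines, a difference of 0.27 inside its error of 0.39. Outside the clusters, H1f0, a linker histone typical of resting and differentiated cells, read 338 in the HES1 line against 717 in the GFP line (-1.09). H1f10 read 1010 against 2180 in the same order (-1.11), and H1f8, the oocyte linker histone, read 343 against 315 (0.12). In all, 4 of 8 measured H1 genes were at least 2-fold lower, of which H1f0 and H1f10 do not belong to a cluster, and the family median was -0.97. After loess H1f0 stood at -0.93, H1f10 at -0.97 and H1f2 at 1.08, which left 2 H1 genes past 2-fold on the lower side and put 1 past it on the higher side. Median scaling gave the same counts. Under normexp background correction H1f0 stood at -0.81.

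The promoters of 4 of the 6 clustered H1 genes are printed, those of H1f5, H1f4 and H1f1, which were lower in the HES1 line, and of H1f2, which was higher. H1f3 was dim in both lines and H1f6 differed by less than its error, and within 250 bases H1f6, like H1f2, had AAACACA and no TATAAA, while H1f3 had both. Each line gives the 150 bases before the transcription start, 5′ to 3′ on the gene's strand, from RefSeq on build GRCm38.p6. Capitals mark the element AAACACA known from H1 promoters, the box CCAAT and the letters TATAAA of the TATA box, each searched on both strands. The stretches are chr13:21780626-21780775 and chr13:23622559-23622708 on the minus strand, and chr13:23763518-23763667 and chr13:23738657-23738806 on the plus strand.
H1f5: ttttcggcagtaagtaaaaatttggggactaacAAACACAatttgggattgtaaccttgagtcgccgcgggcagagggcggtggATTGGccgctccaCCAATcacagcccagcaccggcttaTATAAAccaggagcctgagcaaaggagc
H1f4: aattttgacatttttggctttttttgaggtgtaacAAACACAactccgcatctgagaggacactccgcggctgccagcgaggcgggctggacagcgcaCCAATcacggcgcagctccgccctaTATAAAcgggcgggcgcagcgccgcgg
H1f1: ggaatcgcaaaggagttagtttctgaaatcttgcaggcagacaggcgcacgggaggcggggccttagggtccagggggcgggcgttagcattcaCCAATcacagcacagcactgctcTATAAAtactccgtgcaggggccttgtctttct
H1f2: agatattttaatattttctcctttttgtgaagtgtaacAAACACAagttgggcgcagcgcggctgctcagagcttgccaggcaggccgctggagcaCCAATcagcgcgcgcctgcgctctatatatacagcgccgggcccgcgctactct
AAACACA stood in the stretches of H1f5, H1f4 and H1f2 and not in that of H1f1. TATAAA stood in those of H1f5, H1f4 and H1f1 and not in that of H1f2, and CCAAT stood in all 4. Only the exact letters TATAAA were searched, and the H1f2 stretch holds the letters tatatata between CCAAT and the start. The missing match therefore does not show that H1f2 lacks a TATA box. Over the 250 bases before the start AAACACA was found in 5 of 10 H1 entries with a promoter, against 6.22% of 27025 promoters. It was also found in 2 of 18 H2A promoters, among them H2ac4, and in 2 of 16 H2B promoters. The match in H2ac4 is not marked in the stretch printed further below. CACNAG, the N box described for HES proteins, was found in 6 of those 10 H1 promoters and in 15 of 66 member promoters, or 22.7%, against 36.7% of all promoters. In H1f2 an N box overlapped the AAACACA element. A match to such letters describes the sequence and is no evidence of binding.

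H2A genes were mostly lower by about the same amount. Of 12 measured, 10 were below 0 and 2 were at least 2-fold lower, and the median was -0.55. H2ac4 (Hist1h2ab) had 46096 in the HES1 line against 106606 in the GFP line, a difference of -1.21. H2ac21 (Hist2h2ab) was dim in the HES1 line, at 43.1 against 140 in the GFP line. With the scanner's background correction its bound of 3.24-fold lower is the reading itself, -1.70 ± 0.40 on the log2 scale. Under normexp its difference was -0.65, within 2-fold. The 7 genes H2ac10, H2ac11, H2ac12, H2ac15, H2ac19, H2ac20 and H2ac22 differed by -0.59 to -0.49, a range narrower than the scanner error of each. H2ac12 (Hist1h2ah), for example, had 319634 in the HES1 line against 450610 in the GFP line. The coding sequences of these genes are very alike, so their probes may read each other's mRNA, and the genes cannot be counted as separate readings. A second probe of H2ac15 gave -0.63 against -0.50. H2ac1 (Hist1h2aa), a testis H2A, read 523 in the HES1 line against 970 in the GFP line (-0.89). The members that were higher were H2aw (Hist3h2a), at 4484 in the HES1 line against 2497 in the GFP line (0.84), and H2ac18 (Hist2h2aa1), at 6056 against 4446 (0.45). Both stayed within 2-fold.

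H2B genes were the family with the widest spread. Of 10 measured, 6 were above 0 and 4 below, with a median of 0.34. H2bc4 (Hist1h2bc) had 11650 in the HES1 line against 2537 in the GFP line, which is 4.59-fold higher (2.20 ± 0.20 on the log2 scale) and the highest difference among the members. H2bc23 (Hist1h2bq) was dim in the GFP line, with 90.1 in the HES1 line against 35.9, a bound of at least 2.36-fold higher with the scanner's background correction. Under normexp its difference was 0.26, within 2-fold. H2bc8 (Hist1h2bg) was likewise seen only in the HES1 line, at 55.6 against 36.0, or at least 1.46-fold higher. These genes and the next pair all read higher in the HES1 line. H2bc22 (Hist1h2bp) had 184 in the HES1 line against 97.0 in the GFP line (0.92), and H2bc6 (Hist1h2be) had 652 against 365 (0.84). H2bc14 (Hist1h2bm), at 6996 and 6726 in the HES1 and GFP lines, and the testis gene H2bc1 (Hist1h2ba), at 2978 and 3165, differed by less than the scanner error. On the other side, H2bc18 (Hist2h2bb) had 3262 in the HES1 line against 6471 in the GFP line (-0.99), and H2bc3 (Hist1h2bb) had 73.5 against 136 (-0.89). H2bc21 (Hist2h2be) read 169 against 229 (-0.44). RefSeq lists H2bc4, H2bc6 and H2bc8 under each other's names, so their probes may share mRNA. The family median depended on the dim and shared probes: it was -0.02 over the genes seen on both arrays and -0.09 without the genes listed under each other's names.

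**Figure D2:**
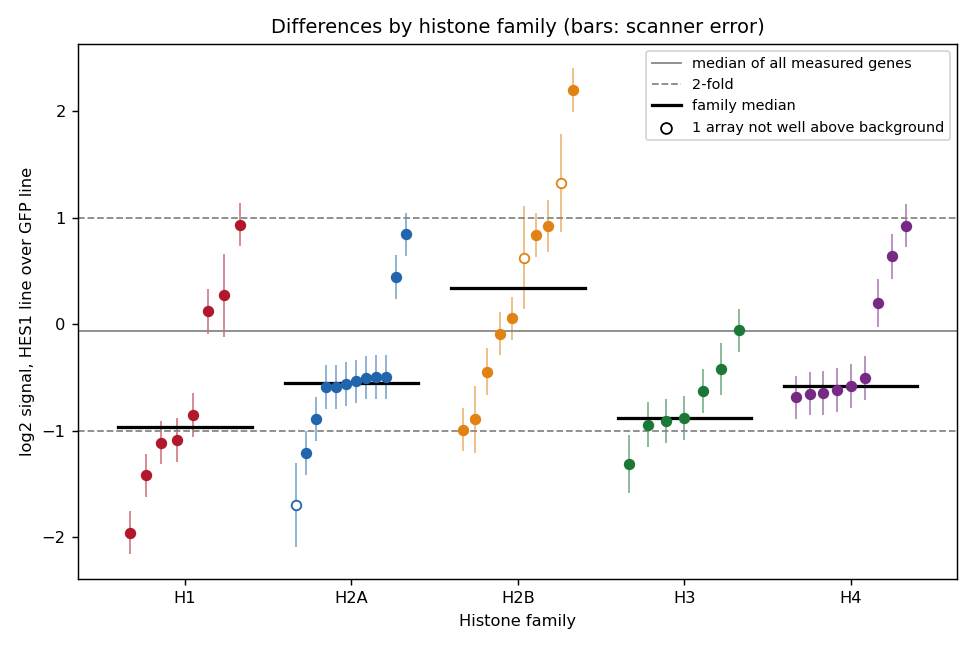
log2 signal of the HES1 line over the GFP line for each measured histone gene, by family; error bars are the scanner's error for 1 array per line, thick bars are family medians, open points were dim on 1 array, and dashed lines mark 2-fold. The medians are -0.97 for H1, -0.55 for H2A, 0.34 for H2B, -0.88 for H3 and -0.58 for H4.

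Genes for H2A and H2B often lie head to head and share the stretch between their starts. The RefSeq promoter table held 10 such pairs of members whose starts lay within 300 bases of each other, and both genes were measured in 2 of them. In the pair H2ac22 and H2bc22, with 240 bases between the starts, H2ac22 (Hist1h2an) read 190563 in the HES1 line against 286778 in the GFP line (-0.59), while H2bc22 stood at 0.92. H2ac22 is among the H2A genes whose probes may read each other's mRNA, so its value may not be its own. The H2bc22 signals were low, at 184 in the HES1 line and 97.0 in the GFP line. In the testis pair, with 281 bases between the starts, H2ac1 stood at -0.89 and H2bc1 at -0.09. The pair with differences of opposite sign is printed with H2ac4, the lowest H2A gene seen on both arrays. Capitals mark the box CCAAT, the letters TATAAA and the octamer ATTTGCAT known from H2B promoters, on either strand. The stretches of 150 bases are chr13:21787249-21787398 (minus strand), chr13:21787338-21787487 (plus strand) and chr13:23750938-23751087 (plus strand) on build GRCm38.p6.
H2ac22: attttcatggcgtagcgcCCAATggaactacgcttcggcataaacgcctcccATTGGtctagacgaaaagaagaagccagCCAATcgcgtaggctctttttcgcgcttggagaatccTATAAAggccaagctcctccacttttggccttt
H2bc22: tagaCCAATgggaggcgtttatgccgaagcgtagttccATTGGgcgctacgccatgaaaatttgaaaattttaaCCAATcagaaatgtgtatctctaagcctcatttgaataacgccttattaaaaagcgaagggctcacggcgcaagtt
H2ac4: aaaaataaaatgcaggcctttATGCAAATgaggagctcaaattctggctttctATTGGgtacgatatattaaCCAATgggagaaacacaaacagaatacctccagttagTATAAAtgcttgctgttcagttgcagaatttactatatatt
The stretches of H2ac22 and H2bc22 overlap, so part of one is the other read on the opposite strand. Within 250 bases before the start, CCAAT was found in 18 of 18 H2A and 16 of 16 H2B promoters, against 34.5% of all promoters, and in 3 of 12 H4 promoters. The octamer was found in 7 of 18 H2A and 6 of 16 H2B promoters, in 0 of 10 H3 and 0 of 12 H4 promoters, and in 1.61% of all promoters. H2bc4 had no entry among the promoters.

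H3 genes were all below 0 with the main scaling. The 7 measured genes had a median of -0.88, and 1 was at least 2-fold lower. That gene, H3c8 (Hist1h3g), read 74.2 in the HES1 line against 184 in the GFP line (-1.31 ± 0.27), and stood within 2-fold under normexp, at -0.62. H3c7 (Hist1h3f) had 448 in the HES1 line against 860 in the GFP line (-0.94), H3c11 (Hist1h3i) had 436 against 817 (-0.91), and H3c13 (Hist2h3b) had 2944 against 5420 (-0.88). H3c3 (Hist1h3c) had 3027 in the HES1 line against 4670 in the GFP line (-0.63). H3c1 (Hist1h3a), at 131 against 175, stood at -0.42. H3c4 (Hist1h3d), at 55318 in the HES1 line and 57561 in the GFP line, differed by -0.06, which is less than the scanner error. Median scaling moved all values up alike, with the median of all named probes going from -0.08 to 0.04. That shift is larger than the distance of H3c4 from 0, so its side of 0 depends on the scaling. Every measured H3 gene carries names of other H3 genes in RefSeq, and the genes encode few different proteins.

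Most H4 genes were lower in the HES1 line, and none passed 2-fold, though H4c9 did after loess, at 1.07, and after median scaling, at 1.04. Of 9 measured, 6 were below 0 and 3 above, with a median of -0.58. H4c14 (Hist2h4) read 74961 in the HES1 line against 120492 in the GFP line (-0.68), H4c11 (Hist1h4j) 3380 against 5306 (-0.65), and H4f16 (Hist4h4) 15385 against 24069 (-0.65). H4c4 (Hist1h4d), at 41491 against 63573, and H4c12 (Hist1h4k), at 89683 against 134154, differed by -0.62 and -0.58, and H4c3 (Hist1h4c), at 2050 against 2908, by -0.50. These 6 spanned less than the scanner error. Above 0 were H4c9 (Hist1h4i), at 2071 in the HES1 line against 1090 in the GFP line (0.93), H4c17 (Hist1h4m), at 322 against 207 (0.64), and H4c8 (Hist1h4h), at 204 against 178 (0.20), a difference inside its scanner error of 0.23. The second probe of H4c9 gave 0.71 and that of H4c12 gave -0.64, so both genes kept their side of 0. The second probe of H4c14 read 84.8 in the HES1 line and 52.5 in the GFP line (0.69) and so went against the first, and the median of both was 0.003. H4 genes are known to encode the same protein, and RefSeq lists each of the 9 with names of other H4 genes, so a probe in the coding part could read any of them.

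Higher and lower members stood among each other along the clusters. On chromosome 13 (the Hist1 cluster) 33 genes were measured, with 4 at least 2-fold lower, 2 at least 2-fold higher and a median of -0.50. For the 8 measured Hist2 genes on chromosome 3 the median was -0.61, with 1 at least 2-fold lower. H2aw was the measured Hist3 gene and H4f16 the Hist4 gene. Along chromosome 13, H1f5 at -1.96 had H3c11 at -0.91 as its measured neighbour, and H2bc4 at 2.20 had H1f6 at 0.27 beside it. Genes of opposite sign stood next to each other at several places, such as H2bc6 at 0.84 and H1f4 at -1.42.

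**Figure D3:**
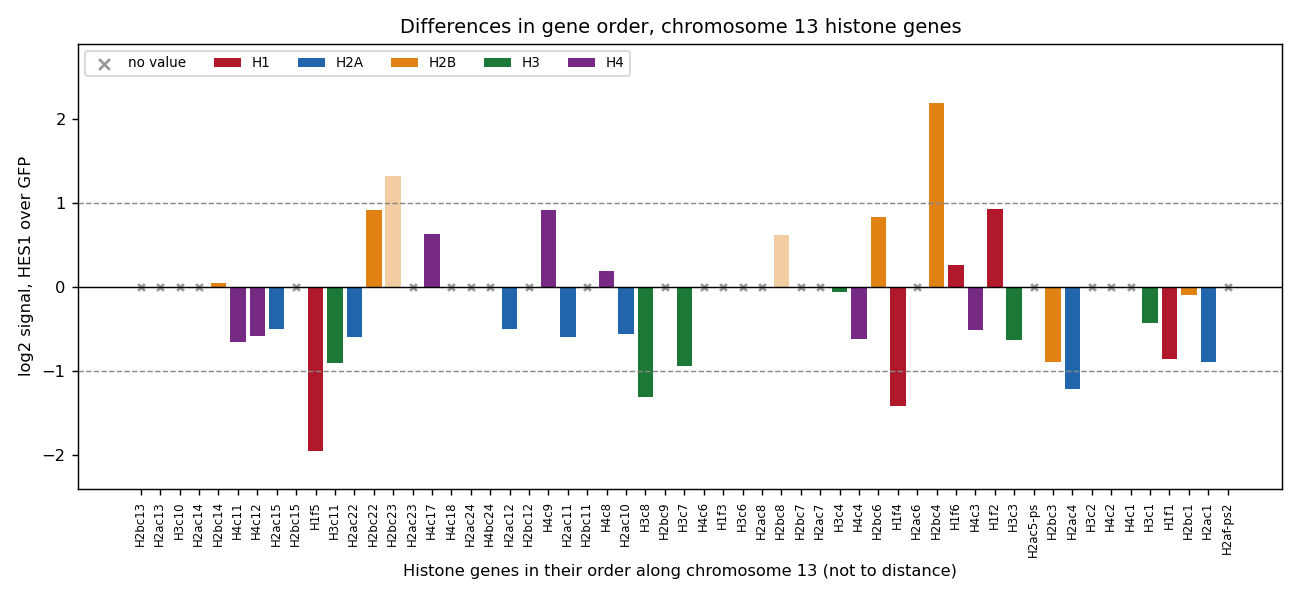
log2 signal of the HES1 line over the GFP line for histone genes in their order along chromosome 13, from 1 array per line; pale bars mark genes well above background on 1 array only and crosses mark genes without a value. Bars above and below 0 stand among each other, with H2bc4 at 2.20 and H1f5 at -1.96 as the extremes.

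The strength of the signal moved with part of this result. All 15 members with a mean signal of at least 10000 were below 0, with a median of -0.59, with 8 of them at least 1.5-fold and 3 at least 2-fold lower. The 15 include the H2A genes that stood together, H4 genes with near copies, and H3c4, at -0.06. They are therefore not 15 separate readings. Over the 2733 genes of the array with such a signal the median was -0.14, and 1782 of them were below 0. Of these 2733 genes, 11.4% were at least 1.5-fold and 2.41% at least 2-fold lower. The 31 members with weaker signals had a median of -0.42, with 17 below 0 and 14 above. Once differences were corrected by a loess curve over brightness, the H2A median was -0.32, and the 7 H2A genes that stood together moved to between -0.37 and -0.27. The part of signal compression in these values was not tested.

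**Figure D4:**
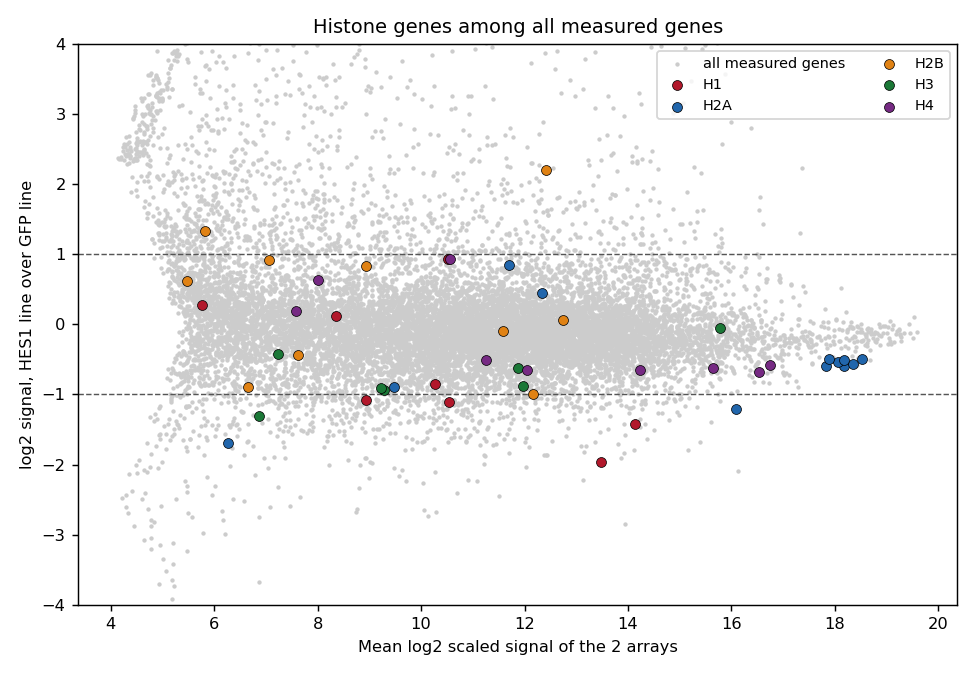
log2 signal of the HES1 line over the GFP line against the mean log2 scaled signal, for all 14273 measured genes (grey) and the histone genes (coloured by family), 1 array per line; 238 genes beyond 4 on the vertical axis are not drawn. The H2A genes at the right edge lie together between -0.59 and -0.49.

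Genes that make and handle histone mRNA differed less than the members. Of 25 measured genes for histone mRNA transcription and 3′ end processing, 1 was at least 2-fold lower, 1 higher, and the median was -0.27. Slbp, the stem-loop binding protein, had 2712 in the HES1 line against 3630 in the GFP line (-0.42). Eri1, the exonuclease that trims the histone 3′ end, had 959 against 1528 (-0.67), and Casp8ap2, a protein of the histone locus body, had 1824 against 1950 (-0.10). The U7 particle genes Lsm10 and Lsm11 stood at 0.28 and -0.27, the H4 gene activator Hinfp at 0.12 and coilin, encoded by Coil, at 0.23. Npat, the coactivator of histone transcription, was dim in both lines. The lower gene was Ccna2, the S and G2 phase cyclin A, at 6606 in the HES1 line against 16852 in the GFP line (-1.35). The higher gene was Tut7, a uridylyltransferase that marks RNA for decay, at 27526 against 11757 (1.23).

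Histone variants encoded outside the rule were also mostly lower in the HES1 line. Of 10 measured, 8 were below 0, 2 were at least 2-fold lower, 0 at least 2-fold higher, and the median was -0.63. Cenpa, the centromeric H3 variant, had 5107 in the HES1 line against 17046 in the GFP line (-1.74), and H2ax, the variant phosphorylated at DNA breaks, had 6095 against 15629 (-1.36). H2az1, which encodes H2A.Z, had 118159 against 219277 (-0.89), Macroh2a1 stood at -0.48 and H2aj at -0.57. The H2aj value lies inside the range of the clustered H2A genes that stood together, and whether its probe reads their mRNA was not tested. The replacement histone H3.3 is encoded by both H3f3a, at -0.68 (33805 in the HES1 line against 54174 in the GFP line), and H3f3b, at 0.23 (83356 against 71035).

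Of 30 histone chaperone and import genes, 1 was at least 2-fold higher, 1 lower, and the median was -0.40. Asf1b, a chaperone of new H3 and H4, had 5087 in the HES1 line against 10613 in the GFP line (-1.06), and was within 2-fold after loess, normexp background correction or median scaling. Daxx, which deposits H3.3, had 101810 against 11445 (3.15). For 35 measured DNA replication and S phase genes the median was -0.43, with 2 at least 2-fold lower. The lower ones were Tk1, thymidine kinase, and Rrm2, a subunit of ribonucleotide reductase, both at -1.19. Of 20 G2 and M phase genes, 18 were at least 2-fold lower and the median was -1.48. The histone median of -0.55 thus stood near that of the replication genes and above that of the G2 and M phase genes. No difference between lists was tested, and the part of a changed share of cycling cells was not tested.

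**Figure D5:**
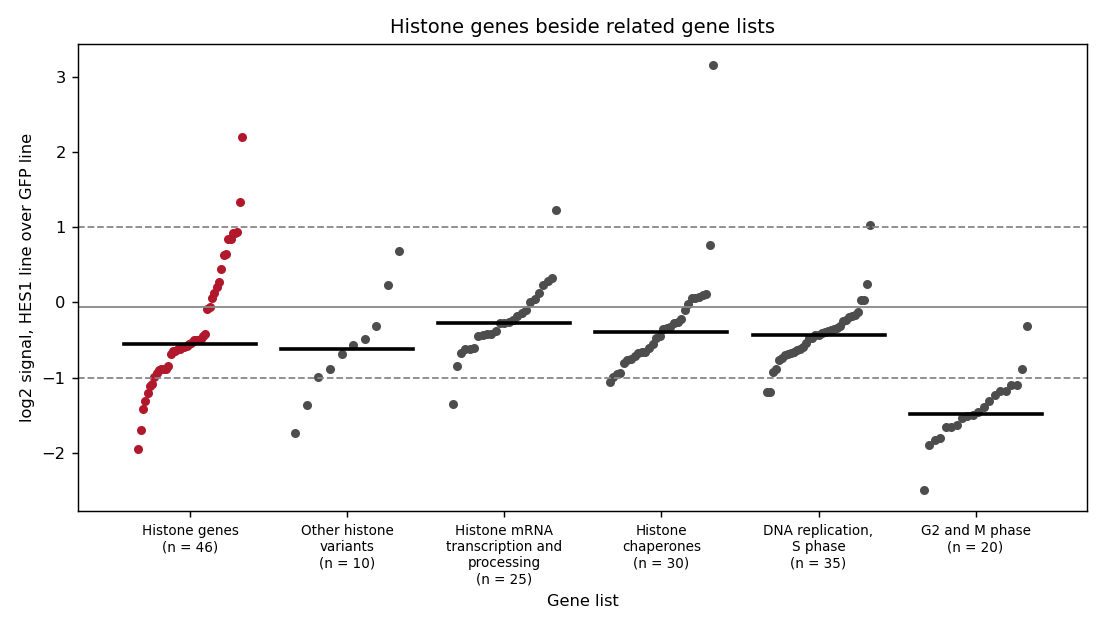
log2 signal of the HES1 line over the GFP line for the measured genes of each list, 1 array per line; thick bars are list medians, the grey line is the median of all measured genes (-0.06) and dashed lines mark 2-fold. Histone genes have a median of -0.55, replication genes of -0.43 and G2 and M phase genes of -1.48.

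The testis histones, H1f6, H2ac1 and H2bc1, gave summed signals of 3561 in the HES1 line and 4185 in the GFP line. Of 4 germ cell markers, 3 were seen. Prm1 had 2403 in the HES1 line against 402 in the GFP line, Tnp1 had 68.3 against 72.3, and Ddx4 was seen only in the HES1 line, at 110 against 10.2, or at least 2.88-fold higher. Their summed signals were 2581 in the HES1 line and 485 in the GFP line, dim readings included, and their part in the testis histone values was not tested.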

How the data were processed

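Each group was 1 single-colour array, and precision is limited by that number. Per the file headers, the authors' scanner software was Agilent Feature Extraction 10.10.1.1, and its deposited intensity for each spot came after background correction and detrending but with no scaling between arrays. The deposited value table equalled that intensity times 1 factor per array (1.53 for HES1, 1.45 for GFP), with medians of 76.6 and 67.7.

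Here, log2 of the processed signal was centred on each array's 75th percentile over 59305 spots that are not controls. Spots with an outlier flag on either array (1053) were left out. Each gene took its value from 1 probe, the brightest that passed the background call in either line. Accessions were named through a RefSeq table of assembly GRCm38.p6, which named 26869 of 54948 probes. Where 1 array was dim, the text gives a bound, which takes the dim signal or, if higher, the faintest detected signal of that array (39.0 for HES1, 38.1 for GFP). Replicated probes (235, with at least 8 spots) had a median spot SD of 0.07 for the log2 difference. The averaging of spots and the choice of probes were tested on simulated data, made from the GFP array with planted differences. That test did not cover the scaling, the outlier filter or the bounds. Python 3.11.15, statsmodels 0.14.6, R 4.3.3 and limma 3.58.1 were used.

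Members, lists and named genes were chosen with earlier results of these data known. The rule named members past 2-fold, the extremes and the brightest of each family, members with a bound past 2-fold and those with probes that disagree, a fixed set of histone-related genes, and up to 4 members past 2-fold of each other list, some of which are left out. The remaining members are named to account for each. Alternatives were other background corrections, normalizations, probe filters, probe summaries, thresholds and member sets. A result of the DNA replication list is not reported here.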

Additional observations from a re-analysis of the deposited data

How the results depend on the processing

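With 1 array per line nothing here has a test. The member median of -0.55 lay between -0.56 and -0.35 under the alternatives run, with -0.35 after loess. Of 481 single-gene values, 464 moved by less than their scanner error, 17 by more, and 0 of those past 2-fold changed sign. Much of the 464 was fixed in advance, so it does not measure stability. The alternatives that only drop members gave 43, 27 and 43 values, which could not move. The authors' deposited values (46) are the same intensities times 1 factor per array. Median scaling (46) shifts all values alike, by less than the scanner error. Among all 46 members, 2 changed sign after loess and 2 after median scaling. The median over both probes put H4c14 at 0.003. The members at least 2-fold higher (2) were 1 under normexp (run on median spot signals, then quantile normalized), 1 when seen on both arrays, 1 at 3-fold, 1 without members that RefSeq lists as near copies, 5 after median scaling (on probes detected in both lines), 5 after loess, and 9 at 1.5-fold. The lower members (7) were 4 under normexp, 2 at 3-fold and 21 at 1.5-fold. Without near copies, 19 of the 27 remaining members were below 0, against 32 of 46. RefSeq names near copies only among the H2B (3), H3 (7) and H4 (9) members. The H2A genes that stood together, whose probes may read each other's mRNA, therefore all stayed in the 27. The counts at least 2-fold lower changed as follows. For H1 (4) the count was 2 after scaling on probes seen on both arrays, after loess and without the H1 genes outside the clusters, and 1 at 3-fold. For H2A (2) it was 1 under normexp, on both arrays and at 3-fold, and 5 at 1.5-fold. For H2B (0) it was 1 after quantile normalization and 2 at 1.5-fold. For H3 (1) it was 0 under normexp, at 3-fold and without near copies, and 5 at 1.5-fold, and for H4 (0) it was 4 at 1.5-fold. The counts at least 2-fold higher changed for H1 (0) to 1 after scaling on probes seen on both arrays, after loess and at 1.5-fold. For H2A (0) it was 1 at 1.5-fold. For H2B (2) it was 1 under normexp, on both arrays, at 3-fold and without near copies, and 5 at 1.5-fold. For H4 (0) it was 1 after both of those scalings and 2 at 1.5-fold. The H1 median was -0.40 without a filter on dim probes, the H2A median -0.32 after loess and the H3 median -0.62 under normexp. The H2B median was 0.062 under normexp, 0.63 without the filter, -0.016 on both arrays and -0.088 without near copies, and the median of variants outside the rule was -0.42 after loess. H1f0, H2ac21, H2bc23 and H3c8 were within 2-fold under normexp, and H1f0 and H1f10 after loess and after scaling on probes seen on both arrays. Among all genes, 2-fold counts were 1582 higher and 707 lower, against 850 and 339 under normexp, and 920 higher with detection in both lines. The median of all named probes was -0.08, against 0.05 after loess. The alternatives that change the set of genes or the threshold change the counts by their construction. Median scaling adds the same amount to every difference, so its changed counts follow from that shift. The normexp correction added an offset of 50 to each signal, which by arithmetic pulls differences of dim probes toward 0. How much of the normexp changes came from the offset was not tested, and for the others the cause was not tested. Near copies were taken from RefSeq's names, since probe sequences were not used here. No paired analysis was possible because each group has 1 array.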
